A study of Mus musculus with 10 samples.

Results

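Heat shock chaperones are proteins that bind unfolded or newly made polypeptides and help them fold. The genes described here are 10 chaperone and regulator genes: Hspa1a, Hspa1b, Hspa8, Hsp90aa1, Hsp90ab1, Hsph1, Dnajb1, Hspd1, Hspe1 and Hsf1. They were listed by symbol, with earlier results of these data known. All 10 were found, through their Entrez identifiers, among 36528 in the deposited tables. They were measured by sequencing polyadenylated RNA of tumour-associated macrophages purified from the MC-38 tumours of C57Bl/6 mice, MC-38 being a transplanted mouse colon carcinoma line. The anti-MerTK group (5 libraries) came from mice given an antibody against MerTK, a receptor tyrosine kinase with which macrophages take up apoptotic cells. The anti-gp120 group (5 libraries) is the control, an antibody to the HIV envelope protein gp120, which mouse cells lack. Both groups carried the same tumour and were profiled 24 h after treatment. The labels give no sex or age, and do not say whether a library is 1 mouse or a pool, so p-values rest on the variation among these samples alone, and that variation may be technical.

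Cytosolic Hsp70 proteins hold short hydrophobic stretches of their clients in a cycle of ATP hydrolysis that Hsp40 proteins start and Hsp110 proteins reset. Hsp90 acts later, on clients such as kinases and steroid receptors, and Hsp60 with Hsp10 forms a folding chamber in mitochondria. When unfolded protein accumulates, the transcription factor Hsf1 is freed from chaperones, forms trimers and binds heat shock elements, which are inverted repeats of GAA units, in the promoters of chaperone genes. In macrophages, as in other cells, the inducible members of the family also respond to warming, dissociation of tissue and other handling.

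Total counts per library ranged from 33159858 to 46108687, with 16475 to 18090 genes detected. The share of mitochondrial counts was 0.711% ± 0.117 after anti-gp120 and 0.612% ± 0.0404 after anti-MerTK (SD, n = 5, two-sided exact permutation p = 0.111). Markers of macrophages (Csf1r, Adgre1, Cd68, C1qa, C1qb, Mrc1 and Apoe) summed to 23065 to 32567 CPM (counts scaled to a common library size) after anti-gp120 and 24355 to 30160.1 CPM after anti-MerTK. Of the other cell types, monocyte markers summed to 122 to 266 CPM after anti-gp120 and 272 to 432 CPM after anti-MerTK. Among them 1 of 6 (Plac8) was higher. Epithelial markers summed to 36.0 to 59.9 and 25.8 to 34.2 CPM in the same order. Only 1 of these 5, Cdh1, had enough counts to be tested, and it was lower. The epithelial sum is mostly Cdh1 and does not measure epithelial cells as a type. Of all tested genes, 1.85% were called higher and 1.38% lower. Summed neutrophil markers gave 62.3 to 105 CPM after anti-gp120 and 69.8 to 90.98 CPM after anti-MerTK. In the same order, endothelial markers gave 82.01 to 131 and 69.8 to 119 CPM. Dendritic cell markers gave 24.6 to 63.6 and 48.3 to 91.7 CPM, and B cell markers 19.8 to 40.2 and 17.6 to 30.5 CPM. Fibroblast markers gave 7.29 to 29.7 and 6.17 to 40.9 CPM, and T cell markers 6.56 to 13.2 and 2.35 to 10.02 CPM. Within these lists, the T cell markers Cd3d, Cd3e, Cd3g and Cd8a and the B cell markers Cd79a and Ms4a1 each averaged under 1 CPM. So did the neutrophil markers S100a8, S100a9, Retnlg and Ly6g and the epithelial markers Epcam, Krt8, Krt18 and Krt19. In bulk RNA, fewer cells of a type and less RNA per cell cannot be told apart.

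The promoters of several of these genes carry the letters to which Hsf1 is known to bind, and 4 windows are shown because they belong to the inducible Hsp70 pair, to Hsph1 and to the start region shared by Hspd1 and Hspe1. The windows run from 250 bases before to 50 bases after an annotated start (RefSeq, GRCm38.p6), 5′ to 3′ on the gene's strand, and capitals mark every match to the paired units GAANNTTC or TTCNNGAA, each of which is its own reverse complement. The Hspa1a window is chr17:34972107-34972406 on the minus strand, Hspa1b is chr17:34959189-34959488 on the minus strand, Hsph1 is chr5:149636266-149636565 on the minus strand, and Hspe1 is chr1:55087898-55088197 on the plus strand.
Hspa1a: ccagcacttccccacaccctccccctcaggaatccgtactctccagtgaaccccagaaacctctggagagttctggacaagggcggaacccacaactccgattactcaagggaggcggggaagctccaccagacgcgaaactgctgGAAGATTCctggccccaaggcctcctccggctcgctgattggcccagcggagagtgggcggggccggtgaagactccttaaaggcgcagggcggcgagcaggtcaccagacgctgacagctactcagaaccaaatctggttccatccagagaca
Hspa1b: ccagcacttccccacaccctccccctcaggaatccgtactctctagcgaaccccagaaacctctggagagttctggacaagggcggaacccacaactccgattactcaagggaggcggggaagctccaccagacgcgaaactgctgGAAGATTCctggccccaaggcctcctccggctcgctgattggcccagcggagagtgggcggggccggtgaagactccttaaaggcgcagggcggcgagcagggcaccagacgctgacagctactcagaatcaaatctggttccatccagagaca
Hsph1: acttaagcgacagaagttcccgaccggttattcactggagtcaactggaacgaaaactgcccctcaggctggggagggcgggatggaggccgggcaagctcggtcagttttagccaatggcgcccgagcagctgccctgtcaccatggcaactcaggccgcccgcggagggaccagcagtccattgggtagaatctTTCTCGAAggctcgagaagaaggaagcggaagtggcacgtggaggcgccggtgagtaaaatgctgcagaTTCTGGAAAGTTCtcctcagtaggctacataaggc
Hspe1: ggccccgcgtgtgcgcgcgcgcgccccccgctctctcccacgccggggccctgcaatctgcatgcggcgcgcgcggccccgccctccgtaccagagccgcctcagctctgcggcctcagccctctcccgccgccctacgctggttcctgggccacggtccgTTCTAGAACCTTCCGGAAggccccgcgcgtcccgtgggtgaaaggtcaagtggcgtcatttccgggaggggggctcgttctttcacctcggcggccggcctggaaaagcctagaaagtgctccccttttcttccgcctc

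The windows of Hspa1a and Hspa1b differed at 4 of 300 positions and each held 1 paired match, starting at position -104, where 1 is the first transcribed base and -1 the base before it. Hsph1 held 3 matches, at -54, 16 and 21, and the last 2 of these overlapped, which made 3 consecutive units. Hspd1 and Hspe1 lie head to head on chromosome 1, and their windows shared 285 bases. In these shared bases stood 3 overlapping matches, at -89, -84 and -79 from the Hspe1 start and at -144, -139 and -134 from 1 of the 2 annotated Hspd1 starts, which made up 4 consecutive units. The 2 windows of Dnajb1 (chr8:83607925-83608224 and chr8:83608298-83608597, plus strand) held 0 matches. In all, 5 of the 6 member genes with a window held a paired match, and 3 held 3 consecutive units (alternating GAA and TTC with 2 bases between units, starting with either, so that each includes paired matches). Counted by gene over the whole set, 4587 of 27025 genes held a paired match and 179 held 3 consecutive units. Counted by window, 6 of the 9 member windows held a paired match. Of all 32851 windows, 15.1% held a paired match and 0.603% held 3 consecutive units. A match is a description of letters, and the data hold no measure of Hsf1 binding.

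**Figure D1:**
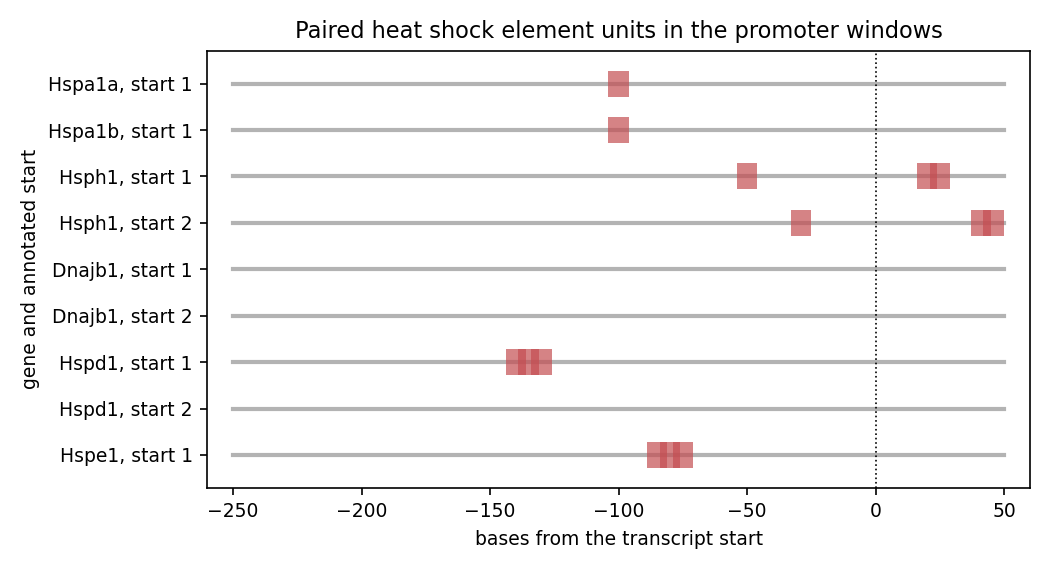
Positions of the paired heat shock element letters in the 9 promoter windows of 6 member genes. Each row is an annotated start, the x axis gives bases from that start, the grey line is the 300-base window, and red blocks are matches; Hspa1a and Hspa1b carry 1 match at the same position, and the rows of Dnajb1 and 1 row of Hspd1 carry none.

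How much of each transcript can be told from other genes bears on every value that follows, because the deposited counts hold only reads that align to a single place. Windows of 50 bases were taken along the longest coding transcript of each member in GENCODE M21, and those also present in another annotated gene were counted (read length is not given in the sources used here). The share was 66.3% for Hspa1a and 62.3% for Hspa1b, which share most of these windows with each other. It was 74.8% for Hspa8, where Gm15459 alone accounted for 70.0%, 58.5% for Hsp90aa1, 44.8% for Hspd1, where the pseudogene Hspd1-ps3 alone accounted for 42.8%, and 44.8% for Hspe1. It was 4.49% for Hsp90ab1 and 0.441% for Dnajb1, and 0 windows of Hsph1 or Hsf1 were shared. The levels of Hspa1a, Hspa1b, Hspa8, Hsp90aa1, Hspd1 and Hspe1 are therefore uncertain. An exon of Hspa1a also overlaps Gm20481 on the opposite strand, and an exon of Hspe1 overlaps Hspd1, likewise on opposite strands. Whether counting used strand is not given in the sources used here, so reads of such partners cannot be told apart.

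**Figure D2:**
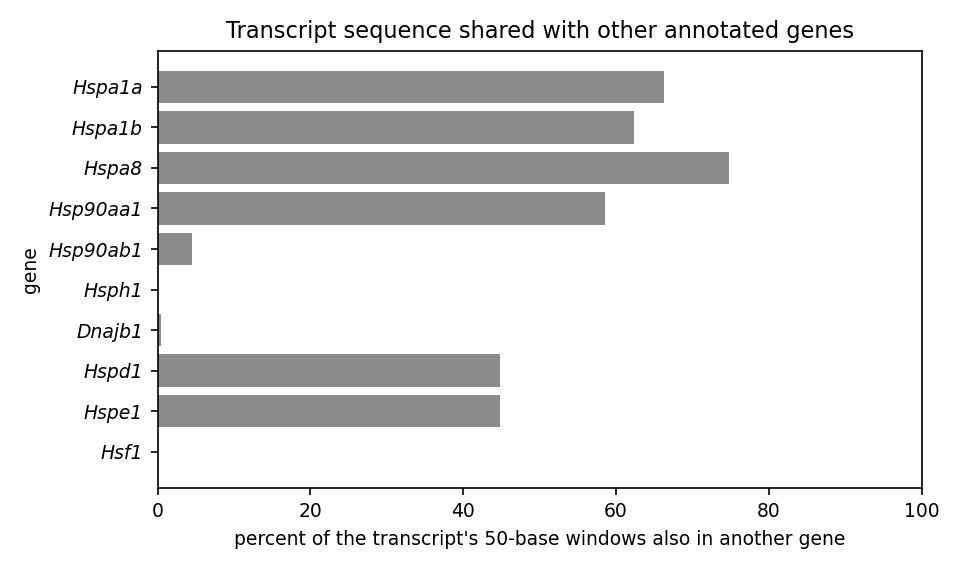
Percent of the 50-base windows of each member's longest coding transcript that also occur in another annotated gene (GENCODE M21). Bars start at 0; Hspa8 has the longest bar at 74.8%, and Hsph1 and Hsf1 have 0.

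The comparison asks which chaperone transcripts differed 24 h after the antibody against MerTK. Hspa1a, an inducible Hsp70, and Hspa8, the constitutive Hsc70, rose, by 1.82-fold and 1.27-fold. The other 8 did not pass the test, although all 10 estimates were positive. That is 2 of 10 members higher and 0 lower, where 3.22% of all 13588 tested genes were called, 1.85% higher and 1.38% lower (edgeR's quasi-likelihood test, Benjamini-Hochberg adjusted p under 0.05 over all tested genes). A positive estimate was found for 49.0% of all tested genes, and the median log2 fold change was 0.27 over the members and -0.01 over all tested genes. An unadjusted p under 0.05 with a positive estimate was reached by 5 members and by 10.1% of all tested genes. Because the list was drawn up with earlier results of these data known, these shares describe the members and do not test them as a set. The count of 2 depended on the libraries: it was 0 in each of 7 fits that left out 1 library (anti-gp120 replicates 1, 2 or 4, or anti-MerTK replicates 1, 2, 3 or 4), 1 without anti-gp120 replicate 3 or 5, and 3 without anti-MerTK replicate 5. It was also 0 in 8 libraries without anti-MerTK replicates 2 and 5, and 0 without anti-MerTK replicates 2 and 3, a setting chosen after seeing the data.

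**Figure D3:**
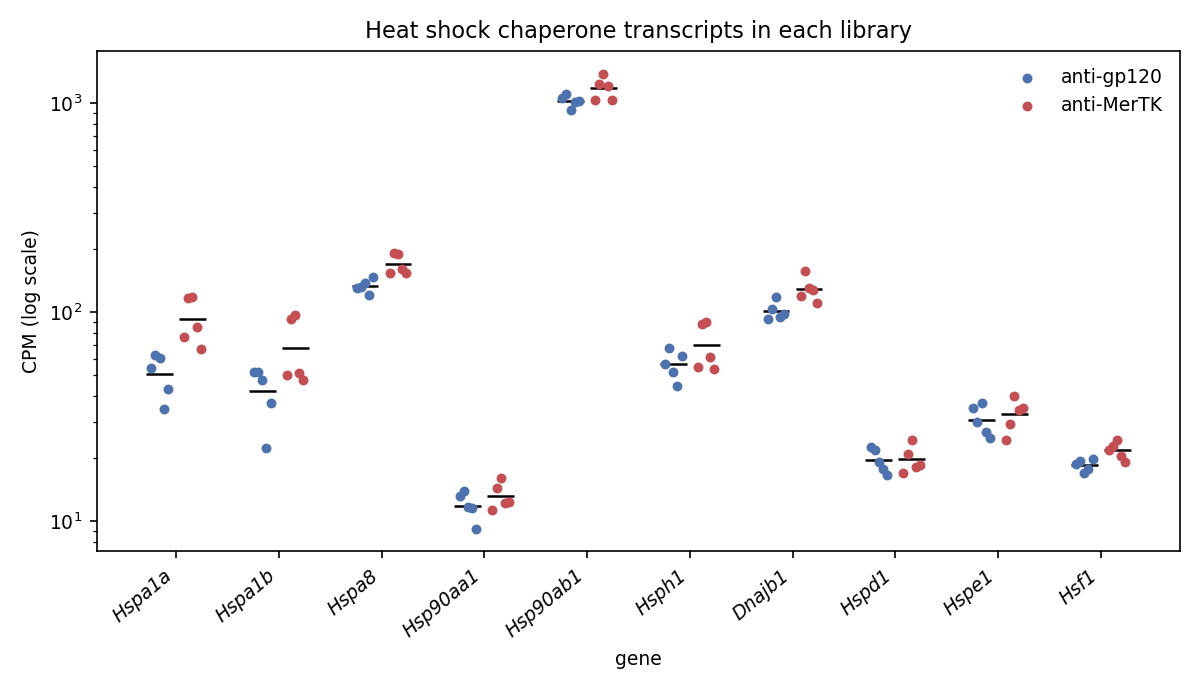
CPM of the 10 genes in each library on a log scale, with 5 blue points for anti-gp120 and 5 red points for anti-MerTK and a bar at the group mean. Only for Hspa1a and Hspa8 among the 10 do all red points lie above all blue points.

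Hspa1a encodes a stress-inducible Hsp70 and is a gene of 1 exon (Entrez 193740, chromosome 17, 34969359 to 34972156). It gave 54.3, 62.2, 60.4, 34.6 and 42.9 CPM in anti-gp120 replicates 1 to 5 and 76.4, 117, 119, 85.5 and 66.5 CPM in anti-MerTK replicates 1 to 5. The lowest anti-MerTK library lay above the highest anti-gp120 library, so the groups did not overlap, as for 3.26% of all tested genes in this direction and 2.71% in the other. The means were 50.9 ± 11.8 and 92.8 ± 23.8 CPM (SD, n = 5), and the log2 fold change was 0.87 (SE 0.20, 95% interval 0.43 to 1.31, edgeR adjusted p = 0.0435). Removing any one anti-gp120 library (1 to 5 in turn) ended the call of Hspa1a, at edgeR adjusted p = 0.0568, 0.0715, 0.0582, 0.0962 and 0.0656. Removing any of anti-MerTK libraries 1 to 4 also ended it, at 0.0755, 0.0957, 0.104 and 0.0687. Without the filter on low counts its adjusted p was 0.0966.

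Hspa1b encodes an Hsp70 of nearly the same sequence and lies beside Hspa1a, also with 1 exon (Entrez 15511, chromosome 17, 34956429 to 34959238). It gave 51.6, 52.1, 47.5, 22.5 and 36.7 CPM after anti-gp120 and 50.1, 92.7, 96.8, 51.1 and 47.5 CPM after anti-MerTK. Anti-MerTK replicates 2 and 3 stood above every other library, anti-gp120 replicate 4 stood below, and the other 3 anti-MerTK libraries fell among the anti-gp120 values. The log2 fold change was 0.69 (SE 0.28, 95% interval 0.07 to 1.30, edgeR adjusted p = 0.195). Counting by unique alignment leaves out reads that match both copies. The counts of the 2 copies were also summed, which does not bring such reads back. The sum missed the threshold (log2 fold change 0.79 with SE 0.23 and edgeR adjusted p = 0.0913). Leaving out 1 library gave the sum adjusted p between 0.0578 and 0.199, and without anti-MerTK replicates 2 and 3 its log2 fold change was 0.44 (adjusted p = 0.460). The rise of Hspa1a alone is thus a call on the reads that separate it from its copy.

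Hspa8 encodes Hsc70, the Hsp70 that cells make without stress (Entrez 15481, chromosome 9, 40801276 to 40805202). It gave 131, 132, 138, 121 and 148 CPM after anti-gp120 and 154, 192, 191, 161 and 154 CPM after anti-MerTK. The groups did not overlap, and anti-MerTK replicates 2 and 3 were again the highest. The means were 134 ± 10.01 and 170.5 ± 19.5 CPM (SD, n = 5), with a log2 fold change of 0.35 (SE 0.09, 95% interval 0.16 to 0.53, edgeR adjusted p = 0.0485). Its call ended when any of anti-gp120 libraries 1 to 4 was removed (edgeR adjusted p = 0.0690, 0.112, 0.0672 and 0.138), and likewise for anti-MerTK libraries 1 to 4 (0.0770, 0.111, 0.127 and 0.0687). Without anti-MerTK replicates 2 and 3 the log2 fold changes of Hspa1a and Hspa8 were 0.58 and 0.22 (adjusted p = 0.273 and 0.358).

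The inducible pair was also set against Hspa8 within each library, a ratio that needs no library scaling. These genes share much of their sequence with other genes or each other. A ratio of their uniquely aligned reads does not give the ratio of the transcripts. The log2 ratio of Hspa1a plus Hspa1b counts to Hspa8 counts was -0.57 ± 0.39 after anti-gp120 and -0.13 ± 0.27 after anti-MerTK (SD, n = 5). The difference of 0.44 had a two-sided exact permutation p = 0.111, which was 0.222 after adjustment over 4 such values. The lowest ratios were those of anti-gp120 replicates 4 and 5, at -1.08 and -0.90. Without anti-gp120 replicate 4 the difference was 0.31, and without anti-MerTK replicates 2 and 3 it was 0.25.

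Partners of Hsp70 came next. Dnajb1, the Hsp40 that delivers clients to Hsp70 and starts its ATP hydrolysis, (Entrez 81489, chromosome 8, 83608175 to 83612653) gave 92.6, 104, 119, 94.8 and 98.5 CPM after anti-gp120 and 119, 158, 131, 128 and 111 CPM after anti-MerTK. All 5 anti-MerTK libraries lay above the anti-gp120 mean, but anti-gp120 replicate 3 reached into the anti-MerTK range. Its log2 fold change was 0.35 (SE 0.10, 95% interval 0.13 to 0.56) and did not pass (edgeR adjusted p = 0.0782). Dnajb1 passed with DESeq2 and limma-voom (adjusted p = 0.0205 and 0.0243), without anti-gp120 replicate 3 (edgeR adjusted p = 0.0494) and without anti-MerTK replicate 5 (edgeR adjusted p = 0.0411). Hsph1, an Hsp110 that exchanges the nucleotide of Hsp70 (Entrez 15505, chromosome 5, 149616843 to 149636498), gave 56.9, 67.8, 52.1, 44.6 and 61.9 CPM after anti-gp120 and 54.9, 88.2, 89.9, 61.2 and 53.5 CPM after anti-MerTK. Only anti-MerTK replicates 2 and 3 lay above the anti-gp120 range. Its log2 fold change was 0.30 (SE 0.17, 95% interval -0.07 to 0.66, edgeR adjusted p = 0.340), and it was -0.003 without those 2 libraries.

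The cytosolic Hsp90 genes did not pass. Hsp90ab1, the constitutive form (Entrez 15516, chromosome 17, 45567778 to 45573261), gave 1059, 1110.2, 931, 1018 and 1026 CPM after anti-gp120 and 1039, 1236, 1391, 1207 and 1035 CPM after anti-MerTK, so that 3 anti-MerTK libraries stood above all anti-gp120 libraries. Its log2 fold change was 0.20 (SE 0.09, 95% interval -0.004 to 0.40, edgeR adjusted p = 0.246). Hsp90aa1, the inducible form (Entrez 15519, chromosome 12, 110691036 to 110696395), lay between 9.22 and 13.9 CPM after anti-gp120 and between 11.4 and 16.1 CPM after anti-MerTK, with a log2 fold change of 0.16 (SE 0.13, 95% interval -0.11 to 0.43, edgeR adjusted p = 0.495). The log2 ratio of Hsp90aa1 to Hsp90ab1 counts was -6.45 ± 0.21 and -6.48 ± 0.10 (SD, n = 5, exact permutation p = 0.770). More of the Hsp90aa1 transcript than of Hsp90ab1 is shared with other genes, so this ratio of uniquely aligned reads does not give the ratio of the transcripts.

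The mitochondrial chaperonin genes showed the smallest estimates among the members. Hspd1, the Hsp60 that forms the folding chamber (Entrez 15510, chromosome 1, 55077833 to 55088243), lay between 16.6 and 22.7 CPM after anti-gp120 and between 17.1 and 24.5 CPM after anti-MerTK, with a log2 fold change of 0.02 (SE 0.12, 95% interval -0.23 to 0.27, edgeR adjusted p = 0.940). Hspe1, the Hsp10 lid of that chamber (Entrez 15528, chromosome 1, 55088148 to 55091317), lay between 25.1 and 36.7 CPM and between 24.5 and 39.9 CPM, with a log2 fold change of 0.09 (SE 0.14, 95% interval -0.21 to 0.39, edgeR adjusted p = 0.754). The log2 ratio of Hspd1 to Hspe1 counts was -0.64 ± 0.18 and -0.70 ± 0.21 (SD, n = 5, exact permutation p = 0.627). The shared start region printed above carried the longest run of heat shock element letters among the windows, which cover 6 of the 10 members. The window of the other annotated Hspd1 start carried none. Whether such letters bear on the differences between the groups was not tested.

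Hsf1, the transcription factor that drives the family (Entrez 15499, chromosome 15, 76477362 to 76501155), gave 18.9, 19.3, 17.0, 17.7 and 19.8 CPM after anti-gp120 and 21.9, 23.1, 24.5, 20.6 and 19.3 CPM after anti-MerTK. Anti-MerTK replicate 5 alone fell within the anti-gp120 range. The log2 fold change was 0.24 (SE 0.08, 95% interval 0.07 to 0.41) and did not pass (edgeR adjusted p = 0.115). Hsf1 is controlled largely on the protein, so its transcript does not measure its activity.

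**Figure D4:**
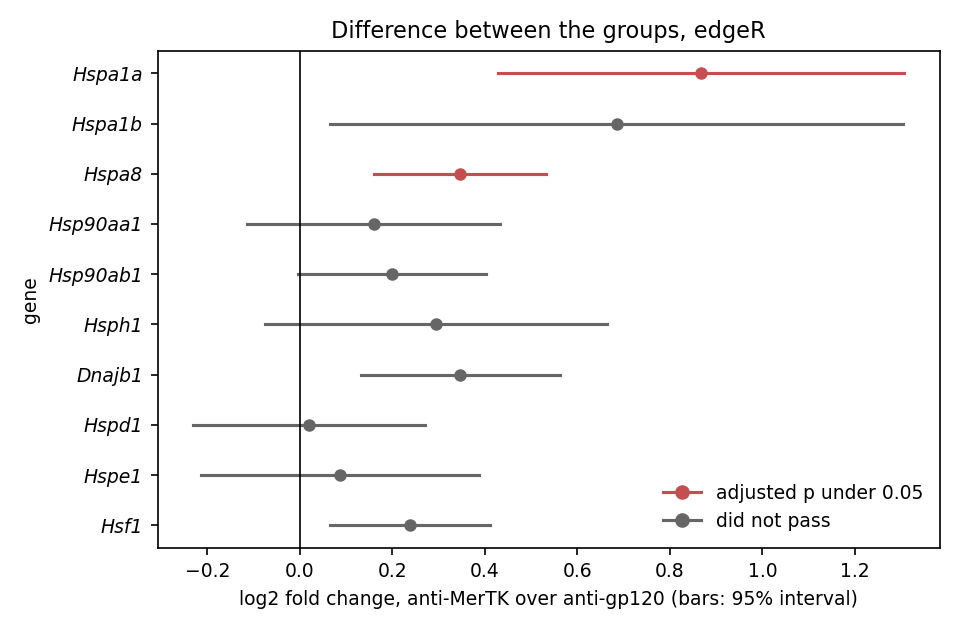
Log2 fold change of anti-MerTK over anti-gp120 for the 10 genes in edgeR, with the 95% interval as a bar; red marks an adjusted p under 0.05 and grey marks genes that did not pass. All 10 points lie right of 0, from 0.02 for Hspd1 to 0.87 for Hspa1a.

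The same libraries were high for most members. Anti-MerTK replicates 2 and 3 were the highest 2 of the 10 libraries for 8 of the 10 genes, the exceptions being Hspd1 and Hspe1, and replicate 3 was also the highest for those. Over all tested genes, these were the highest 2 libraries for 3.81%. Because the 2 libraries were picked after seeing the members' values, setting these shares side by side is a description and no test. The spread was widest for the inducible Hsp70 pair, whose highest library exceeded the lowest by 3.43-fold for Hspa1a and 4.31-fold for Hspa1b, against 1.44-fold for Hsf1 and 1.49-fold for Hsp90ab1. The 10 genes took 0.162%, 0.169%, 0.140%, 0.138% and 0.143% of the counts of anti-gp120 replicates 1 to 5 and 0.162%, 0.193%, 0.214%, 0.170% and 0.157% of those of anti-MerTK replicates 1 to 5. The means differed by 0.0290 percentage points (exact permutation p = 0.0476, 0.190 after adjustment over 4 values), and by 0.0130 without anti-MerTK replicates 2 and 3.

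**Figure D5:**
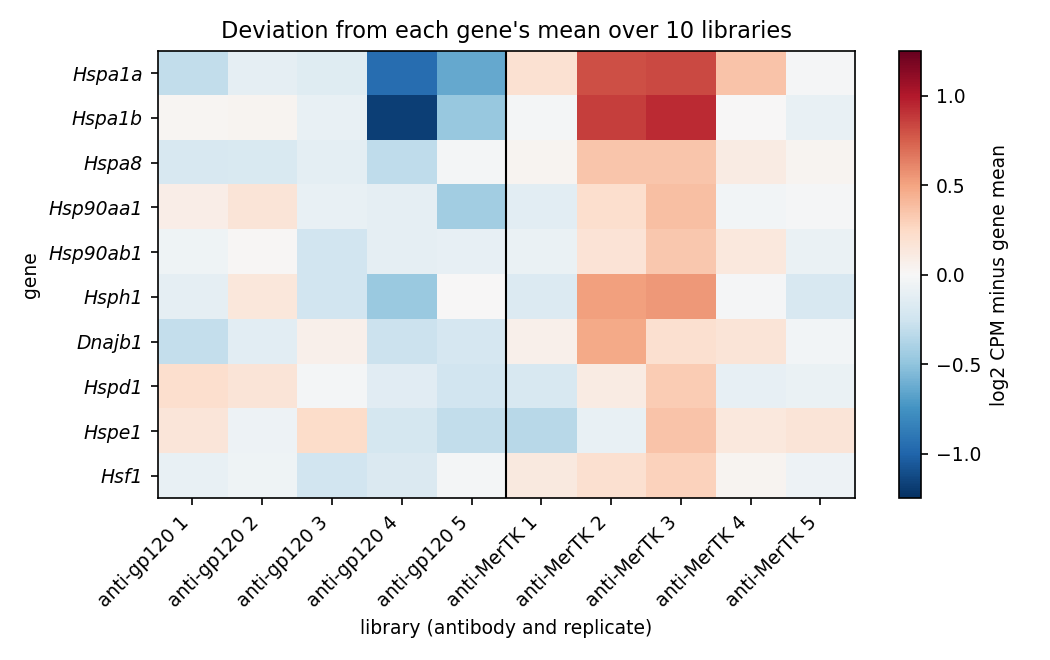
Log2 CPM of each gene in each library minus that gene's mean over the 10 libraries, as colour from blue (below) to red (above). The columns of anti-MerTK replicates 2 and 3 are red in both for each gene except Hspe1, which lies below its mean in replicate 2, and the deepest blue is Hspa1b in anti-gp120 replicate 4.

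Levels can be set between genes only per length, for which the authors' RPKM values (read counts divided by gene length and by library size) serve. After anti-gp120, Hsp90ab1 stood highest at 411 ± 23.3 RPKM, followed by Hspa8 at 63.9 ± 4.86 (SD, n = 5). Dnajb1 at 41.3 ± 4.397 and Hspe1 at 40.04 ± 6.58 RPKM did not differ beyond their spread. Next came Hspa1a at 18.2 ± 4.18, Hspa1b at 15.0 ± 4.45 and Hsph1 at 13.3 ± 2.01 RPKM, where Hspa1b differed from neither of the others by more than its own SD, while Hspa1a lay above Hsph1 in each of the 5 libraries. Hspd1 and Hsf1 lay together at 8.01 ± 1.04 and 7.90 ± 0.459 RPKM, and Hsp90aa1 was lowest at 3.87 ± 0.567 RPKM. After anti-MerTK the levels were 473 ± 59.6 for Hsp90ab1, 81.4 ± 9.30 for Hspa8, 52.6 ± 7.13 for Dnajb1, 42.6 ± 7.71 for Hspe1 and 33.3 ± 8.54 RPKM for Hspa1a, and Hsp90aa1 was again lowest at 4.34 ± 0.642 RPKM. For the genes that share much of their sequence, these levels count only the uniquely aligned part of the reads.

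The wider chaperone network held 67 genes in 7 lists. Of these 2 were higher, 0 were lower and 46 had a positive estimate, with a median log2 fold change of 0.08. Of all tested genes, 1.85% were higher, 1.38% lower and 49.0% positive, so the 2 calls do not set the network apart. At an unadjusted edgeR p under 0.05, 15 of the 67 were higher and 3 lower, where 10.1% of all tested genes were higher. The groups did not overlap for 6 higher and 2 lower, where the shares over all tested genes were 3.26% and 2.71%. The lists were chosen with earlier results known, so these shares are a description and no test. Clpp, the mitochondrial protease subunit and 1 of 10 genes listed as mitochondrial chaperones and proteases, gave 18.4, 16.7, 17.3, 16.6 and 18.7 CPM after anti-gp120 and 24.0, 21.2, 23.4, 21.8 and 20.9 CPM after anti-MerTK. It rose by a log2 fold change of 0.35 (SE 0.07, edgeR adjusted p = 0.0239). The groups did not overlap, as for 3.26% of all tested genes in this direction. The call of Clpp ended when anti-gp120 library 2 or 4 was removed (edgeR adjusted p = 0.0678 and 0.0759), and likewise for anti-MerTK library 1 or 3 (0.0755 and 0.0707). Cct7, a subunit of the cytosolic chaperonin TRiC that folds actin and tubulin, rose from 205.5 ± 11.9 to 248 ± 12.9 CPM (SD, n = 5, log2 fold change 0.27 with SE 0.065 and edgeR adjusted p = 0.0445), also without overlap. The call of Cct7 ended when any of anti-gp120 libraries 2 to 5 was removed (edgeR adjusted p = 0.102, 0.0654, 0.135 and 0.0579), for anti-MerTK libraries 1 to 4 (0.106, 0.0940, 0.122 and 0.0688), and without the filter on low counts (0.0735). Without anti-MerTK replicates 2 and 3 the adjusted p was 0.173 for Clpp and 0.316 for Cct7. All 8 TRiC subunits had a positive estimate, where 49.0% of all tested genes had one.

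In edgeR the cochaperones did not pass. Among 14 cochaperones of Hsp90, 10 estimates were positive, with a median of 0.13 on the log2 scale, and 0 passed (5 higher and 0 lower at an unadjusted edgeR p under 0.05). Of all tested genes, 10.1% were higher at that unadjusted threshold. Ahsa1, which stimulates the ATPase of Hsp90, and Stip1, which links Hsp70 to Hsp90, had log2 fold changes of 0.34 and 0.30 (edgeR adjusted p = 0.0900 and 0.0904). Both passed with DESeq2 (adjusted p = 0.0294 and 0.0287), with limma-voom (0.0316 and 0.0456) and without anti-MerTK replicate 5 (edgeR adjusted p = 0.0365 and 0.0343). Among 18 relatives and cochaperones of Hsp70, 12 estimates were positive and 0 passed (3 higher and 2 lower at an unadjusted p under 0.05), with Hspbp1 and Bag1, both nucleotide exchange factors, at 0.21 and 0.21 (edgeR adjusted p = 0.0969 and 0.111). These also passed with DESeq2 (adjusted p = 0.0348 and 0.0479), though not with limma-voom (0.0508 and 0.0661). Of the 4 small heat shock proteins, 0 passed and 1 had a positive estimate, with a median of -0.04 on the log2 scale. A positive estimate was found for 49.0% of all tested genes. The 2 of smallest p, Cryab, a lens crystallin, and Hspb6, were scarce. Cryab stood at 2.86 ± 1.18 and 2.35 ± 0.888 CPM and Hspb6 at 2.76 ± 0.464 and 2.69 ± 0.430 CPM (SD, n = 5). Hsf2, another heat shock factor, had a log2 fold change of 0.16 (edgeR adjusted p = 0.419). Hsbp1, which is no heat shock factor but binds the trimers of Hsf1, had one of 0.06 (edgeR adjusted p = 0.687). In the endoplasmic reticulum, 0 of 10 chaperones passed (2 higher and 1 lower at an unadjusted p under 0.05), with Dnajc3 at -0.27 and Sdf2l1 at 0.29 on the log2 scale (edgeR adjusted p = 0.104 and 0.116). Dnajc3 passed with DESeq2 (adjusted p = 0.0482) and Sdf2l1 with limma-voom (adjusted p = 0.0455).

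Immediate early genes respond to handling of tissue, as inducible chaperones do. Of 20 tested, 1 was higher and 0 lower, 16 estimates were positive, and their median was 0.23 on the log2 scale. At an unadjusted edgeR p under 0.05, 7 were higher and 0 lower, where 10.1% of all tested genes were higher. Of all tested genes, 1.85% were called higher, 1.38% lower, and 49.0% had a positive estimate. Dusp1, a phosphatase of MAP kinases, rose from 935 ± 61.8 to 1309.8 ± 241 CPM (SD, n = 5, log2 fold change 0.49 with SE 0.12 and edgeR adjusted p = 0.0435). Its call held with anti-MerTK replicate 5 removed, and ended with any other single library removed (edgeR adjusted p from 0.0572 to 0.105). The 20 genes summed to 6666, 7874, 9079.9, 9760.2 and 8752 CPM in anti-gp120 replicates 1 to 5 and to 9076, 9705, 9858, 11652 and 8556 CPM in anti-MerTK replicates 1 to 5. The highest sum was that of anti-MerTK replicate 4, and anti-MerTK replicates 2 and 3 were the highest 2 libraries for 0 of the 20 genes. They were so for 3.81% of all tested genes, and 0 of 20 is near that share. The part of handling, or of the monocyte markers given above, in the differences of the chaperones was not tested.

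Genes whose levels followed the members most closely were looked up among all named tested genes, by Pearson correlation of log2 CPM over the 10 libraries, as a description. With the mean of Hspa1a plus Hspa1b, Dnajb1 and Hsph1, the 5 highest were Mettl2 (r = 0.949), Cxcl14 (0.931), Rrp15 (0.931), Ebna1bp2 (0.923) and Cacybp (0.921). After removal of the group means these correlations lay between 0.846 and 0.971. By rank (Spearman), with group means kept, the 5 gave 0.770, 0.867, 0.976, 0.964 and 0.806 in the same order. Of the 5, Ebna1bp2 rose after anti-MerTK (log2 fold change 0.31, edgeR adjusted p = 0.0356), and Cacybp is among the listed Hsp90 cochaperones. With the mean of Hspd1 and Hspe1, the 5 highest were Ube2d2a (r = 0.949), Plekhh3 (0.899), Nop58 (0.892), Sfxn1 (0.866) and Hdac2 (0.855). Within each of the 10 libraries, all genes share its depth and any common cause of variation. The genes named here were chosen as the highest among all those tested.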

How the data were processed

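RNA of purified tumour macrophages was sequenced in 10 libraries, grouped by the antibody in the labels, 5 per group. Per the submitters' processing notes, GSNAP (an aligner) and the GRCm38 build were used. The aligner's version, its annotation and its use of strand were not given in the sources used here. The deposited counts are reads aligning uniquely to a gene model, per the file headers. The deposited RPKM values are size-factor-adjusted, per the file headers, and served here for levels per length and to recover those factors.

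Of 36528 Entrez identifiers, 31049 were named from RefSeq (GRCm38.p6). Groups were compared by quasi-likelihood in edgeR 4.0.16 (R 4.3.3, with limma 3.58.1) after TMM normalization and filterByExpr (13588 genes kept), and Benjamini-Hochberg adjustment ran over all tested genes at 0.05. The fit was tested on simulated data. SE is the log2 fold change over the square root of F. CPM uses TMM library sizes, and log2 CPM a prior count of 2. Single values were compared by two-sided exact permutation over 252 assignments, whose smallest p is 0.00794. Promoters and positions are RefSeq's, and shared windows of 50 bases come from GENCODE M21. Replicate numbers follow deposition order and pair nothing.

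The members and lists were chosen with earlier results of these data known. Named are all members, every listed gene past the threshold or else the 2 of smallest p per list, and the 5 genes closest in pattern. Alternatives were RLE and the authors' size factors, no filter, DESeq2 1.42.0, limma-voom with quality weights, leaving out libraries, summing Hspa1a with Hspa1b, and RPKM for single values.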

Additional observations from a re-analysis of the deposited data

Results flagged for a closer look

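One value among the named genes and single values stood apart within its group of 5. Hsbp1, whose product binds Hsf1 trimers, gave 156 CPM in anti-gp120 replicate 3, while the other 4 anti-gp120 libraries lay between 120.1 and 129 CPM. The gap to the nearest library was 0.756 of the group's range, above the limit of 0.71 for 5 values. Chance flags about 1 in 20 groups, and 54 group values were looked at.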

How the results depend on the processing

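No paired analysis was possible because the labels carry no replicate numbers. With any single library left out, 9 or 10 of the 10 members had a positive estimate, and the members called numbered 0 to 3, the immediate early genes called 0 to 3, the related chaperone genes called 0 to 4, and all genes called 70 (without anti-gp120 replicate 4) to 654 (without anti-MerTK replicate 5), against 2, 1, 2 and 438 with all libraries. Without anti-MerTK replicates 2 and 5, these were 0, 2, 1 and 204. Without anti-MerTK replicates 2 and 3 (chosen after seeing the data) they were 0, 0, 0 and 22, with Hspd1 at -0.126, Hsph1 at -0.0028 and Hspb6 at 0.034 on the log2 scale. DESeq2 called 3 members, 4 immediate early genes, 11 related chaperone genes and 1168 genes in all, and limma-voom 3, 4, 8 and 1007. Without the filter 1 member and 1 related gene were called, and with Hspa1a and Hspa1b summed 1 member was. RLE and the authors' size factors called the same 2 members. Leaving out 1 library turned Hspd1 negative without anti-MerTK replicate 3 (-0.065) and without anti-gp120 replicates 4 (-0.012) or 5 (-0.035), within a range up to 0.077, and turned Hspb6 positive without anti-MerTK replicate 4 (0.021) or anti-gp120 replicates 2 (0.020) or 4 (0.027), within a range down to -0.115. The difference in the log2 ratio of Hsp90aa1 to Hsp90ab1 ranged from -0.1185 to 0.0072, and was positive without anti-MerTK replicate 4 (0.0072) or anti-gp120 replicates 2 (0.00089) or 3 (0.00096). The authors' RPKM left the 4 single values on the same side of the threshold. Apart from the removal of libraries and genes, the cause of these shifts was not tested. The lowest count of a member in any library was 376.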
